A study of Mus musculus with 8 samples.

Results

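The genes of the autophagy machinery were examined in lumbar DRGs (L3 to L5) of male α-Gal A(-/0) mice, a model of Fabry disease (FD), and of male wildtype C57BL/6J mice, both aged 20 to 24 weeks and neither treated. They are 40 genes chosen by name for their place in autophagy initiation, conjugation and cargo recognition, out of 34763 gene names on the array. The 40 genes had 61 probes, each of 60 bases. α-Gal A is the lysosomal enzyme that the Gla gene on the X chromosome encodes, and FD mice are bred to lack it. Each group held 4 samples, each with the pooled DRGs of 2 mice, and the samples shared 1 Agilent slide with an array for each of the 8, read in 1 color. The FD and wildtype mice came from separate inbred colonies, so genotype and colony cannot be told apart here.

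Autophagy carries cytoplasm and worn organelles to the lysosome. The ULK kinase complex starts the process, a class III PI3-kinase complex marks the growing membrane with the lipid PI3P, and Atg9 vesicles and Atg2 proteins supply the membrane with lipid. A pair of ubiquitin-like conjugation systems then fixes ATG8 family proteins (LC3 and GABARAP) to the membrane, receptors such as p62 and optineurin tie cargo to them, and the closed autophagosome fuses with a lysosome. Neurons live long and cannot dilute damaged organelles by dividing, and autophagosomes formed in their axons travel back to the cell body, which for sensory axons lies in the DRG. In lysosomal storage diseases the last step takes place in a lysosome that is loaded with undigested substrate.

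What an array reports for a gene is the brightness of a short DNA probe. Printed here are probes of Optn, Atg9a, Atg3 and Gabarap, which had the largest differences, and of Sqstm1 and Stx17. Sqstm1 and Stx17 are among several members whose probes differed in direction. The sequences read 5′ to 3′ in lower case, as given for the array and on the strand of the transcript. All positions of probes are on mm9. The Optn probe lies on the minus strand at chr2:4954187-4954246, the Atg9a probe on the minus strand at chr1:75184260-75184319, and the Atg3 probe on the plus strand at chr16:45183811-45183870. Of Gabarap the probe on the plus strand at chr11:69806095-69806154 is shown, of Sqstm1 that on the minus strand at chr11:50015985-50016044, and of Stx17 that on the plus strand at chr4:48179853-48179912. In each of these 6 sequences at least 1 of the forward reading frames has no stop codon. This does not show that they lie in coding sequence, which could not be checked.
Optn: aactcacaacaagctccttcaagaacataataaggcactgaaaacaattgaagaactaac
Atg9a: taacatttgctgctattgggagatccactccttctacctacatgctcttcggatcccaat
Atg3: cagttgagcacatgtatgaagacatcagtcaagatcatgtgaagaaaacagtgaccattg
Gabarap: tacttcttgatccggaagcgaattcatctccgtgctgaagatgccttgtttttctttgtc
Sqstm1: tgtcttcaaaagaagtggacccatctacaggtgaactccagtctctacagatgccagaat
Stx17: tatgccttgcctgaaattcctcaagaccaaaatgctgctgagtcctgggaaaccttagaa

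All values are log2 signals after quantile normalization, a log2 fold change is the FD mean minus the wildtype mean, and a gene is called when its adjusted p in limma is under 0.05 over all 29432 tested probes. A probe was tested when its signal stood well above background on each of the 8 arrays. Where a gene had several such probes, the brightest stands for it. Signals of different probes cannot be compared as levels. Markers of sensory neurons were well above background on all arrays for 14 of 14 genes, against 1 of 5 for skeletal muscle and 1 of 4 for oligodendrocytes of the spinal cord. The targeted gene, Gla, differed by -0.03 on the log2 scale (adjusted p = 0.879), and since the sources do not say whether its probe lies in the disrupted part of the gene, this checks nothing about the labels. Over all tested probes, wildtype sample 1 stood apart, with 32.7 on the first principal component, where the other wildtype samples lay at 14.9 to 15.3 and the FD samples at -21.1 to -16.3. On the second component it lay at 31.2 and wildtype sample 2 at -27.3, with the other samples from -10.2 to 8.38. Wildtype sample 1 was also the only wildtype sample in the first row of the slide, beside 3 FD samples. Whether the sample or its place on the slide lies behind this was not tested, and values without it are given beside some of the members. Members without such a value moved as well, such as Ambra1 from -0.03 to 0.04.

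Of the 40 autophagy machinery genes, 38 were well above background on all 8 arrays, with 59 probes. Atg4a, a protease that trims GABARAP proteins, was well above background on 0 of 8 arrays, and Atg9b, a tissue-restricted relative of Atg9a, on 2 of 8, of which 1 was an FD array. None of the 38 genes was called, with 0 higher and 0 lower in FD DRGs, against 2.02% of all 21063 tested genes higher and 1.10% lower. Other settings of the analysis called Optn, Gabarap, Atg9a or Atg13, at most 3 of them in the same setting. That setting, with array weights, called 7.35% of all tested genes. The study's own criteria, applied to the same limma fit, are an unadjusted p-value no higher than 0.01 and a 1.2-fold change or more. Optn met them as higher and Atg9a as lower, which is 1 of 38 (2.63%) in each direction, beside 3.67% higher and 2.38% lower of all tested genes. Atg9a did not meet them with the methods' t-test, with array weights or with a replicate block, and Optn did not without wildtype sample 1. At an unadjusted p under 0.05 there were 3 members higher (Optn, Gabarap and Atg3) and 3 lower (Atg9a, Atg13 and Sqstm1), 7.89% of the members in each direction, beside 10.6% and 7.11% of all tested genes. In the same 6 genes the 4 FD and the 4 wildtype samples did not overlap, which held for 8.62% of all tested genes in the upward and 5.12% in the downward direction. With at most 3 members in a direction, these shares lay near those of the whole array. In whole DRGs, fewer cells of a type and less RNA per cell cannot be told apart, which applies to every value that follows.

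The members were evenly split in direction. Of the 38 genes, 19 had a positive and 19 a negative log2 fold change, whereas 55.7% of all tested genes had a positive one. The median over the members was -0.0013, beside 0.019 over all tested genes, and the members ranged from -0.32 for Atg9a to 0.31 for Optn. Without regard to sign, the median size of the difference was 0.072 in the members and 0.098 over all tested genes. The split in direction changed with the setting, with 17 positive members without FD sample 1 and 23 with 75th percentile scaling. With the mean of a gene's tested probes 22 were positive. The median was then 0.021 in the members and 0.020 over all tested genes.

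The intervals show how large a change these samples could have missed. The 95% interval of all 38 members lay within a 1.5-fold change in either direction, and that of 24 members within 1.2-fold. Its widest bound was 1.41-fold, and the median of its distance from the estimate to a bound was 0.16 on the log2 scale. These intervals cover only the brightest tested probe of each gene. On the dimmer Sqstm1 probe the interval reached farther, from 0.10 to 0.58 on the log2 scale. A difference beyond 1.2-fold therefore lay within the interval of 14 members, and an uncalled member is not shown to be unchanged.

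**Figure D1:**
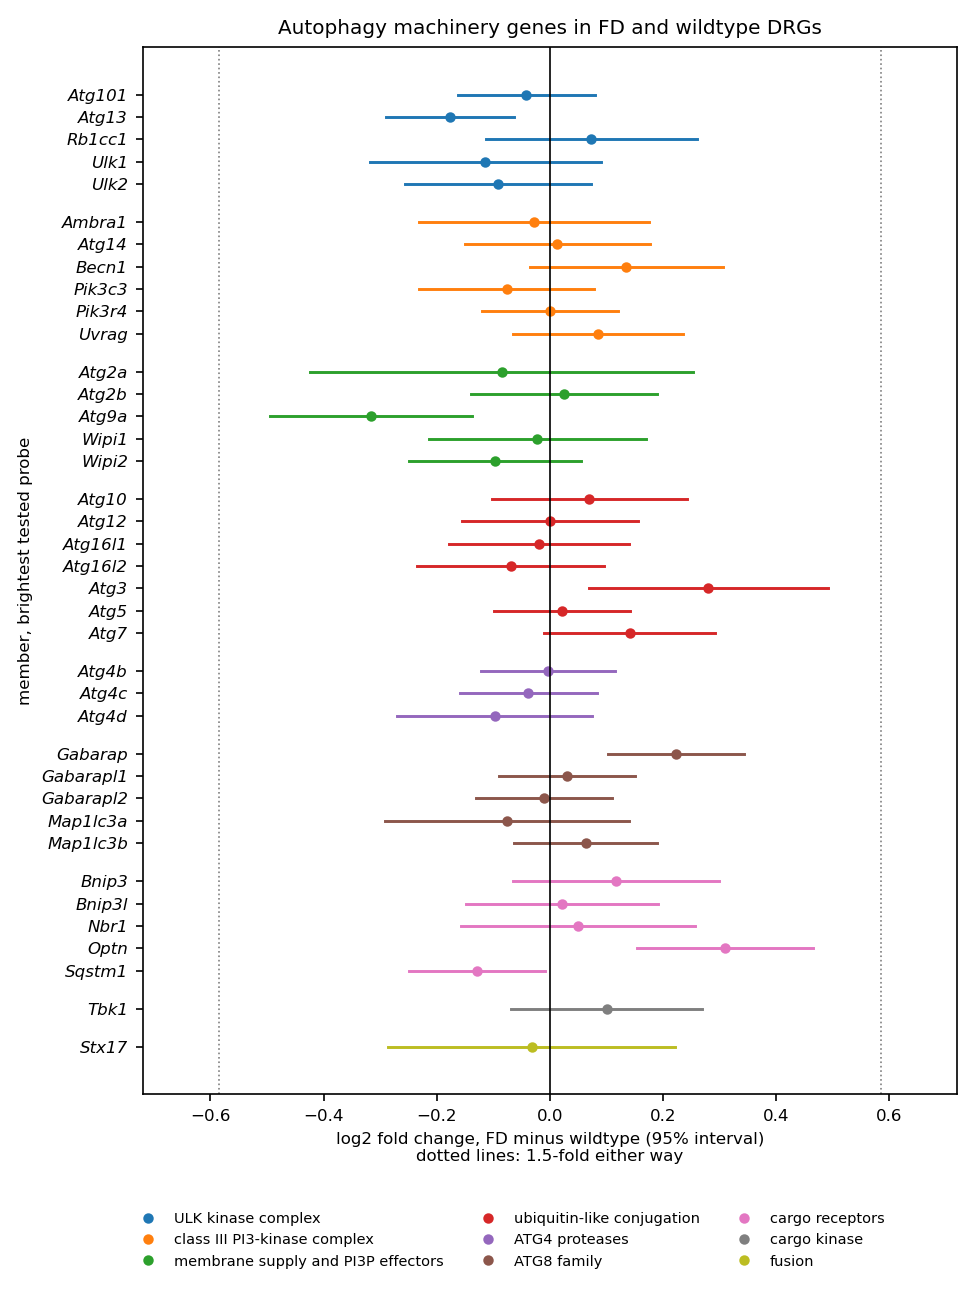
The log2 fold change (FD minus wildtype) of the 38 tested members is plotted on the horizontal axis with its 95% interval in limma, 1 gene per line, colored by role. The points lie between -0.32 (Atg9a) and 0.31 (Optn), and no interval reaches the dotted lines at a 1.5-fold change.

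The ULK kinase complex, which nutrient shortage switches on, had 5 tested members, of which 4 had lower means in FD DRGs. None was called, and their median log2 fold change was -0.09. Atg13, the subunit that links the kinase to its scaffold, had log2 signals of 13.87, 13.88, 13.92 and 13.85 in FD samples 1 to 4 and of 14.11, 14.04, 14.04 and 14.03 in wildtype samples 1 to 4. Every FD sample lay below every wildtype sample, and both groups were tight. The difference was -0.18 ± 0.050 (SE), with an unadjusted p of 0.0067 and an adjusted p of 0.108 in limma. Ulk1, the kinase itself, measured 13.97, 13.87, 13.83 and 13.65 in the FD samples and 14.03, 13.76, 14.03 and 13.96 in the wildtype samples. These groups overlapped, with a log2 fold change of -0.11 ± 0.090 (SE) and an adjusted p of 0.553 in limma. It was -0.05 without FD sample 4 and -0.17 without wildtype sample 2, the lowest sample of each group. Of the other members, the relative Ulk2 and the stabilizing subunit Atg101 had log2 fold changes of -0.09 and -0.04, and the scaffold Rb1cc1 one of 0.07. A dimmer Ulk2 probe gave 0.02 (adjusted p = 0.894 in limma).

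The class III PI3-kinase complex was close to evenly split, with 4 positive and 2 negative differences among 6 tested members and a median of 0.007. Becn1, the core subunit on which many regulators of autophagy act, had log2 signals of 11.06, 11.15, 11.12 and 11.15 in FD samples and 10.78, 11.03, 11.06 and 11.06 in wildtype samples. Wildtype sample 1 was the lowest of all 8. With all samples the log2 fold change was 0.14 ± 0.075 (SE, adjusted p = 0.387 in limma), and without wildtype sample 1 it was 0.07 ± 0.046 (SE). The catalytic subunit Pik3c3 (-0.08), its partner Pik3r4 (0.0001), the subunits Atg14 (0.01) and Uvrag (0.09), which define separate forms of the complex, and the regulator Ambra1 (-0.03) had adjusted p-values of 0.543 or more in limma.

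Among the genes of membrane supply and the proteins that read PI3P, 4 of 5 tested members had lower means in FD DRGs, with a median of -0.08. Atg9a, the membrane protein whose vesicles seed the autophagosome, had the lowest log2 fold change of all tested members. Its probe, printed above, gave log2 signals of 9.41, 9.42, 9.41 and 9.45 in the 4 FD samples, against 9.88, 9.80, 9.76 and 9.52 in the wildtype samples. The FD samples were nearly identical and all lower, while wildtype sample 4 lay close to them. The fitted difference was -0.32 ± 0.079 (SE), a 1.25-fold difference, with an unadjusted p of 0.0032 and an adjusted p of 0.0722 in limma. Leaving out wildtype sample 4 gave -0.39 ± 0.060 (SE, adjusted p = 0.0226), and leaving out wildtype sample 1 gave -0.27 ± 0.073 (SE, adjusted p = 0.0984). Thus leaving out 1 wildtype sample moved Atg9a across the threshold. With all 8 samples, normexp background correction did so too (adjusted p = 0.0376 in limma). The lipid transfer proteins Atg2a and Atg2b and the PI3P readers Wipi1 and Wipi2 lay between -0.10 and 0.03, and their groups overlapped. The median of the 5 members was the value of Atg2a. Its wildtype sample 1 (10.26) lay above its other wildtype samples (9.54 to 9.76), and without that sample Atg2a turned to 0.06. Dimmer Wipi1 probes gave 0.13 (adjusted p = 0.522 in limma) and -0.05 (adjusted p = 0.842).

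The conjugation systems work like ubiquitin ligation, with Atg7 as the activating enzyme, Atg3 and Atg10 as conjugating enzymes, and Atg12, Atg5 and the Atg16l proteins as the ligase that brings LC3 to the membrane. Of 7 tested members 5 had positive differences, and the median was 0.02. Atg3 measured 12.34, 12.39, 12.24 and 12.31 in FD samples and 11.80, 11.99, 12.17 and 12.20 in wildtype samples. All FD samples were higher, but wildtype samples 3 and 4 lay close to the lowest of them. In log2 the groups differed by 0.28 ± 0.093 (SE, unadjusted p = 0.0151, adjusted p = 0.161 in limma), and without wildtype sample 1 it was 0.20 ± 0.068 (SE).

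Atg7 had log2 signals of 11.87, 11.97, 11.96 and 11.94 in FD DRGs and of 11.93, 11.80, 11.79 and 11.67 in wildtype DRGs. Here wildtype sample 1 alone lay within the FD range. The log2 fold change was 0.14 ± 0.067 (SE, adjusted p = 0.315 in limma) and 0.19 ± 0.055 (SE, adjusted p = 0.126) without that sample, and a dimmer Atg7 probe gave -0.05 (adjusted p = 0.774). Atg5 did not separate the groups, with 12.97, 12.92, 12.91 and 12.94 in FD samples and 12.84, 12.97, 12.95 and 12.90 in wildtype samples. Its difference of 0.02 ± 0.053 (SE, adjusted p = 0.866 in limma) had a 95% interval from -0.10 to 0.14. The other 4 members, Atg10, Atg12, Atg16l1 and Atg16l2, lay between -0.07 and 0.07. A second probe of Atg10, nearly as bright, gave 0.17 (unadjusted p = 0.0495, adjusted p = 0.282).

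The Atg4 proteases prepare LC3 and GABARAP for conjugation and later release them from the membrane. All 3 tested proteases, Atg4b, Atg4c and Atg4d, had differences between -0.10 and -0.003. A dimmer Atg4c probe gave 0.0004 (adjusted p = 0.998 in limma). Atg4b, the main LC3 protease, had log2 signals of 9.48, 9.40, 9.48 and 9.54 in FD samples and 9.45, 9.50, 9.47 and 9.49 in wildtype samples. The groups lay over each other, and its difference was -0.003 ± 0.052 (SE, adjusted p = 0.984 in limma) with an interval from -0.12 to 0.12.

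In the ATG8 family, whose proteins coat the autophagosome, Gabarap differed most. Its brightest probe measured 15.17, 15.23, 15.28 and 15.23 in FD samples and 15.02, 14.96, 15.06 and 14.98 in wildtype samples, with no overlap. The log2 fold change was 0.22 ± 0.053 (SE), a 1.17-fold difference, with an unadjusted p of 0.0024 and an adjusted p of 0.0620 in limma. Scaled to the 75th percentile of each array instead, Gabarap had a difference of 0.28 and was called (adjusted p = 0.0255 in limma). A second Gabarap probe gave a difference of the same size. This probe, whose sequence is printed above and which starts 2248 bases upstream of the brightest on the genome, gave 13.86, 13.85, 13.91 and 13.92 in FD samples and 13.69, 13.69, 13.61 and 13.65 in wildtype samples. These values also did not overlap, and the difference of 0.23 ± 0.051 (SE) had an adjusted p of 0.0537 in limma. The dimmest Gabarap probe gave 0.13 ± 0.11 (SE, adjusted p = 0.579), with overlapping groups. Both bright probes measured the same 8 samples, so they are no independent replicates.

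Map1lc3b, which encodes the LC3 protein most often used to count autophagosomes, had log2 signals of 16.00, 16.01, 16.02 and 15.98 in FD DRGs and of 16.04, 15.90, 15.95 and 15.87 in wildtype DRGs. The FD values lay between wildtype sample 1 and the other 3 wildtype samples, which were all lower. Its log2 fold change was 0.06 ± 0.055 (SE, adjusted p = 0.588 in limma), and 0.10 ± 0.045 (SE, adjusted p = 0.298) without wildtype sample 1. Map1lc3a, Gabarapl1 and Gabarapl2 had log2 fold changes of -0.08, 0.03 and -0.01.

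**Figure D2:**
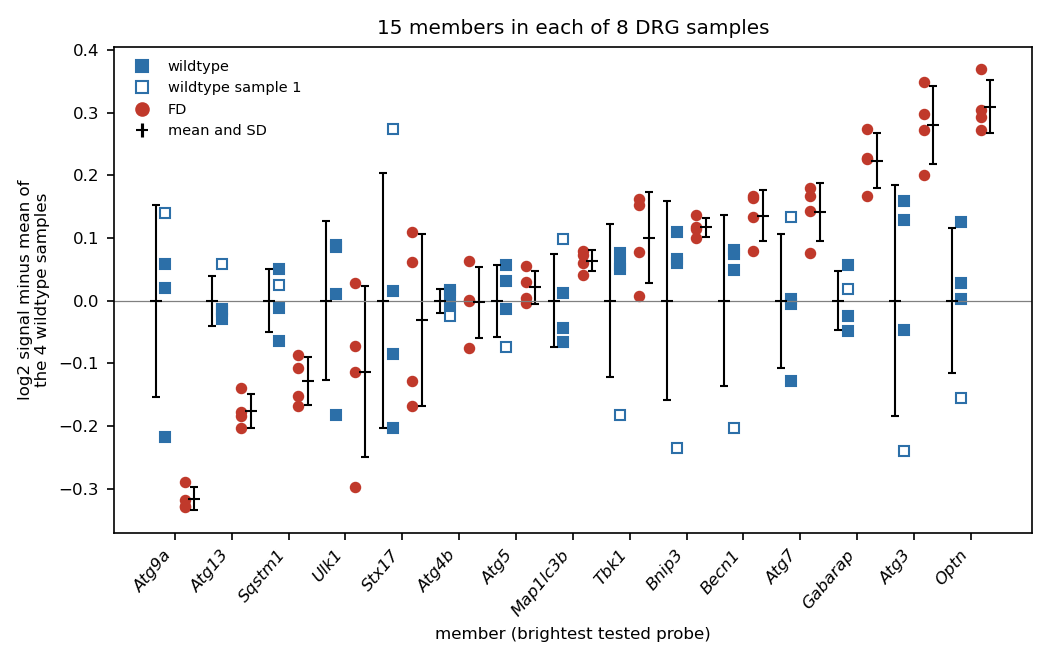
Log2 signal of 15 members in each sample, as the difference from the mean of the 4 wildtype samples (vertical axis), with blue squares for wildtype, red circles for FD, and the mean and SD (n = 4) in black beside each group. The groups do not overlap in Atg9a, Atg13, Sqstm1, Gabarap, Atg3 and Optn, and wildtype sample 1 (open square) is the lowest wildtype sample in Tbk1, Bnip3, Becn1, Atg3, Optn, Atg5 and Atg4b and the highest in Stx17, Atg9a, Atg13, Atg7, Ulk1 and Map1lc3b.

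Cargo receptors hold ubiquitin or a mitochondrial surface with 1 end and an ATG8 protein with the other. Of 5 tested receptors 4 had positive differences, with a median of 0.05. Optn, which encodes optineurin, a receptor for damaged mitochondria and bacteria, had the highest log2 fold change of all tested members. It measured 9.75, 9.78, 9.85 and 9.77 in FD samples and 9.32, 9.60, 9.48 and 9.51 in wildtype samples. Every FD sample was higher than every wildtype sample, and the wildtype samples were the more spread. FD exceeded wildtype by 0.31 ± 0.069 (SE) on the log2 scale, a 1.24-fold difference, with an unadjusted p of 0.0016 and an adjusted p of 0.0510 in limma. Leaving out wildtype sample 1 gave 0.26 ± 0.053 (SE, adjusted p = 0.0466) and leaving out wildtype sample 2 gave 0.35 ± 0.065 (SE, adjusted p = 0.0368). The call depended on single samples and on the processing. With all 8 samples Optn was called with normexp background correction (adjusted p = 0.0432 in limma) and array weights (0.0117), and not with a replicate block (0.141).

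Sqstm1 encodes p62, which gathers ubiquitinated proteins and is itself degraded by autophagy, and its probes disagreed in direction. The brightest, printed above, gave 13.54, 13.56, 13.50 and 13.48 in FD samples and 13.68, 13.64, 13.59 and 13.70 in wildtype samples. Here all FD samples were lower, by 0.13 ± 0.053 (SE) on the log2 scale (unadjusted p = 0.0378, adjusted p = 0.249 in limma). The other probe, which starts 3117 bases farther toward the 3′ end at chr11:50012868-50012927, gave 8.52, 8.65, 8.74 and 8.57 in FD samples and 8.49, 8.38, 8.23 and 8.02 in wildtype samples. On that probe all FD samples were higher, with a difference of 0.34 ± 0.10 (SE, unadjusted p = 0.0103, adjusted p = 0.133 in limma). Because its probes disagreed, the direction of Sqstm1 is not settled by these arrays. The dimmer probe had no RefSeq transcript, so its gene name is that given by the array.

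Bnip3, a mitophagy receptor that low oxygen induces, had log2 signals of 15.38, 15.40, 15.39 and 15.42 in FD samples and 15.04, 15.35, 15.34 and 15.39 in wildtype samples. Only wildtype sample 1 lay well below the others. The difference was 0.12 ± 0.080 (SE, adjusted p = 0.489 in limma), and 0.04 ± 0.043 (SE) without that sample. Dimmer Bnip3 probes gave 0.02 (adjusted p = 0.893 in limma) and 0.04 (adjusted p = 0.776). Its relative Bnip3l had log2 fold changes from 0.009 to 0.13 on 4 probes, of which the dimmest did not overlap between the groups (adjusted p = 0.233), and Nbr1, which works beside p62, had one of 0.05.

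Tbk1, the kinase that phosphorylates optineurin and p62 and thereby tightens their grip on cargo, measured 10.89, 10.97, 10.82 and 10.96 in FD samples and 10.63, 10.89, 10.86 and 10.87 in wildtype samples. The groups overlapped, and wildtype sample 1 was again the lowest. The log2 fold change was 0.10 ± 0.075 (SE, adjusted p = 0.525 in limma), and 0.04 ± 0.054 (SE) without that sample.

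Stx17, the SNARE protein that lets the finished autophagosome fuse with the lysosome, also depended on the probe. Its brightest probe, printed above, gave 9.61, 9.38, 9.42 and 9.66 in FD samples and 9.82, 9.46, 9.56 and 9.35 in wildtype samples. The groups overlapped over nearly their whole range, with a difference of -0.03 ± 0.11 (SE, adjusted p = 0.911 in limma) that turned to 0.06 ± 0.090 (SE) without wildtype sample 1. A second probe, 19288 bases farther toward the 3′ end at chr4:48199141-48199200, gave 9.53, 9.63, 9.49 and 9.57 in FD samples and 9.18, 9.36, 9.45 and 9.35 in wildtype samples. There all FD samples were higher, with a difference of 0.22 ± 0.071 (SE, unadjusted p = 0.0132, adjusted p = 0.151 in limma). The remaining probe gave 0.10 ± 0.082 (SE, adjusted p = 0.573).

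**Figure D3:**
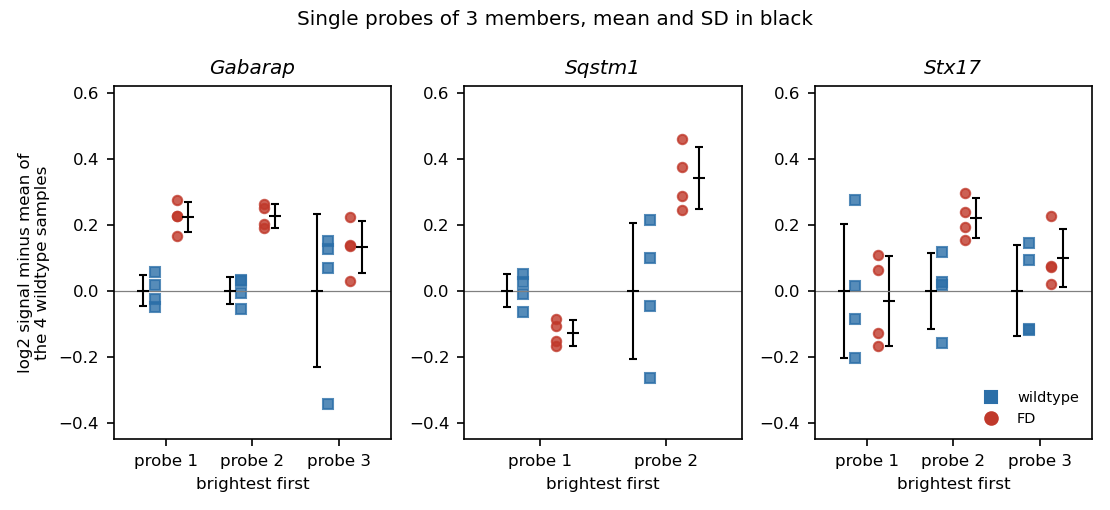
Each tested probe of Gabarap, Sqstm1 and Stx17 is plotted from the brightest to the dimmest, as the log2 signal of each sample minus the mean of the 4 wildtype samples (vertical axis), with the mean and SD (n = 4) in black. The FD samples lie above wildtype on both bright Gabarap probes, below it on the brightest Sqstm1 probe and above it on the other, with log2 fold changes of 0.22, 0.23, -0.13 and 0.34.

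Wildtype sample 1 took up an outer place in the members more often than the other samples. It was the lowest or highest of the 4 wildtype samples in 32 of 38 members (84.2%), beside 69.7% of all tested genes. The median SD of the members was 0.053 in FD and 0.110 in wildtype samples, and 0.061 in wildtype samples without sample 1. Over all tested genes these values were 0.088, 0.134 and 0.095, with the same order. The wildtype SD was the larger in 30 of 38 members (78.9%), beside 71.7% of all tested genes.

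The rows of the slide were also compared in the members with separate groups. There every FD sample lay on the same side of every wildtype sample, so the direction within a row was fixed in advance. Only the size of the difference could vary. Between the 3 FD samples and wildtype sample 1 of the first row, Optn differed by 0.47 and Atg9a by -0.47, and between FD sample 4 and the 3 wildtype samples of the second row by 0.24 and -0.24. In the first and second row the differences were 0.20 and 0.23 for Gabarap, -0.23 and -0.18 for Atg13, and 0.52 and 0.19 for Atg3. They were -0.14 and -0.16 for the brightest Sqstm1 probe. Each row holds only 1 sample of 1 of the groups, so no test was made within it. With the row as a block the adjusted p in limma was 0.0528 for Optn, 0.0838 for Atg9a, 0.102 for Gabarap, 0.0880 for Atg13 and 0.0953 for Atg3.

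The transcription factor TFEB raises lysosomal and autophagy genes through a motif in their promoters whose core is CACGTG, and the promoter sequences of the members were searched for it. RefSeq promoters (GRCm38.p6, 250 bases before to 50 after the gene start) were given for 33 of the 40 members. Rb1cc1, Becn1, Pik3c3, Atg12, Atg16l1, Map1lc3a and Bnip3l were not among them. CACGTG, which reads the same on both strands, was found in 6 of 33 (18.2%), beside 8.09% of the 27025 genes with a promoter. Those 27025 include genes that were not tested here. Among the tested genes with a promoter 1351 held CACGTG and 10689 did not, beside 6 and 25 of the tested members. The longer TCACGTGA, which contains CACGTG and also reads the same on both strands, was found in Atg3 alone (3.03%), beside 1.12% of all genes. The 6 promoters are shown because they hold the motif, each as 30 bases read on the strand of the gene, with CACGTG in capitals. Atg3 holds it at chr16:45158723-45158752 and chr16:45158746-45158775 (plus strand), starting 94 and 71 bases before the gene start, and the latter is the longer form. The others lie at chr6:114670952-114670981 (Atg7, plus), chr7:138909597-138909626 (Bnip3, minus), chr10:121586772-121586801 (Tbk1, minus), chr10:44268313-44268342 (Atg5, plus) and chr14:47568418-47568447 (Atg14, minus).
Atg3, first: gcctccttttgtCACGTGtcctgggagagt
Atg3, second: ggagagtcgagtCACGTGaggccttaggtg
Atg7: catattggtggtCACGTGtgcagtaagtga
Bnip3: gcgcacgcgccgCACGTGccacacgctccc
Tbk1: cccgcactcggtCACGTGctccgtggcccg
Atg5: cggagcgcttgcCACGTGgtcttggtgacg
Atg14: aaaacaaaatccCACGTGactggccctgag

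All 6 members with the motif were tested, and all 6 log2 fold changes were positive, with 0.28 for Atg3, 0.14 for Atg7, 0.12 for Bnip3, 0.10 for Tbk1, 0.02 for Atg5 and 0.01 for Atg14, a median of 0.11. Of the 25 other tested members with a promoter, 9 had positive values, and their median was -0.03. Optn, Atg9a and Gabarap were among those without the motif. Over all tested genes the same split gave a median of 0.040 for 1351 genes with CACGTG (61.8% positive) and of 0.015 for 10689 genes without it (54.6% positive). None of the 6 members was called, and the split was not tested. Without wildtype sample 1, a setting added after the values were seen, the median of the 6 was 0.05, with Bnip3 and Tbk1 at 0.04 each and Atg5 at -0.004, and that of the 25 others was -0.01. Atg14 turned to -0.04 with the slide row as a block, and to -0.02 and -0.03 without wildtype samples 3 and 4. With the mean of a gene's tested probes all 6 stayed positive, with a median of 0.05. That of the 25 others was then -0.003, with 12 positive.

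Other genes of the pathway, written as 4 lists, were looked at in the same way. None of their 75 tested genes was called, with 0 in either direction. In the control of autophagy by mTORC1, AMPK and TFEB, 5 of 22 tested genes had positive and 17 negative differences, with a median of -0.06. The smallest p-values were those of Tsc1, an inhibitor of mTORC1 (0.25 ± 0.11 SE, adjusted p = 0.258 in limma), and Rptor, the subunit of mTORC1 that binds its substrates (-0.16 ± 0.092 SE, adjusted p = 0.416). Tfeb itself had a log2 fold change of -0.09 (adjusted p = 0.777).

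Among 15 further genes of membrane supply and PI3P, 10 were positive and the median was 0.07. Ei24, a membrane protein of the endoplasmic reticulum needed for autophagosome formation, had 0.19 ± 0.054 (SE, adjusted p = 0.117 in limma), and Nrbf2, a subunit of the PI3-kinase complex, had 0.18 ± 0.066 (SE, adjusted p = 0.193). Of 19 further receptors and mitophagy genes, 9 were positive and the median was -0.02. There the receptor Tollip had 0.15 ± 0.059 (SE, adjusted p = 0.230) and Tex264, a receptor for the endoplasmic reticulum, had 0.20 ± 0.078 (SE, adjusted p = 0.235). Of 19 genes of autophagosome to lysosome fusion, 15 were positive and the median was 0.05, with Lamp1, a lysosomal membrane protein, at 0.19 ± 0.057 (SE, adjusted p = 0.124) and Rab7, the GTPase of late endosomes, at 0.15 ± 0.054 (SE, adjusted p = 0.190). These counts stand beside 55.7% positive and a median of 0.019 over all tested genes, and no list was tested as a whole.

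**Figure D4:**
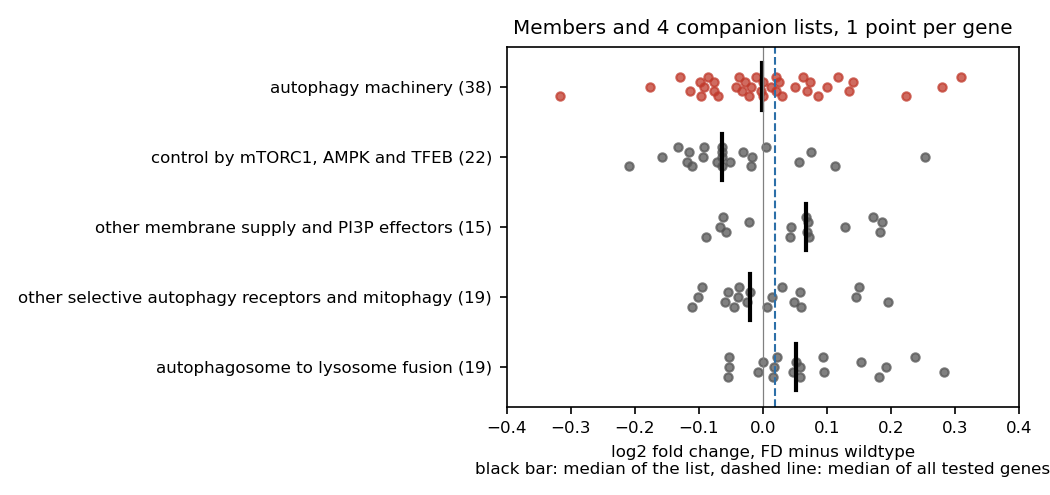
Log2 fold change (FD minus wildtype, horizontal axis) of each tested gene of the autophagy machinery (38 genes) and of the 4 other lists (22, 15, 19 and 19 genes), with the median of each list as a black bar and the median of all tested genes (0.019) as a dashed line. The medians lie between -0.06 and 0.07, and single genes of each list lie on both sides of 0.

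Markers of the cell types of the DRG were examined beside the members. The median size of their differences without regard to sign was 0.16 for Schwann cells and myelin, 0.28 for macrophages and 0.41 for red cells. It was 0.13 for endothelium, 0.11 for satellite glia, 0.092 for sensory neurons and 0.085 for fibroblasts. These values stood beside 0.072 for the members and 0.098 over all tested genes. Lists with at most 2 tested genes are left out. Of the endothelial markers 4 of 5 were negative (median -0.13), and of the satellite glia markers 4 of 6 (median -0.07). All 8 tested markers of Schwann cells and myelin had negative differences, with a median of -0.16, and their mean log2 signal ran from 12.85 to 13.06 in FD samples and from 12.92 to 13.21 in wildtype samples. Of 6 tested macrophage markers 5 were negative (median -0.19, Cd163 not well above background), whereas Cd68, which encodes a lysosomal membrane protein, was at 0.51 ± 0.12 (SE, adjusted p = 0.0573 in limma) with all FD samples higher. The mean log2 signal of the macrophage markers ran from 9.61 to 10.06 in FD samples and from 9.73 to 10.08 in wildtype samples. All 3 red cell markers were negative (median -0.41, mean signals of 10.81 to 11.60 in FD and 11.35 to 11.99 in wildtype samples), and so were all 6 fibroblast markers (median -0.08), with Dcn, a matrix proteoglycan, lowest at -0.29 ± 0.075 (SE, adjusted p = 0.0806). The 14 sensory neuron markers had a median of -0.03, with mean signals of 14.86 to 14.92 in FD and 14.86 to 15.004 in wildtype samples. None of the tested cell type markers was called. Their part in the values of the members was not tested.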

How the data were processed

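For each spot the authors deposited an intensity read with Agilent Feature Extraction 10.7.3.1, which per the file headers adjusted the background and removed trends across the array. The authors also deposited log2 values that GeneSpring had quantile normalized, in a table where 36 of 38097 lines are not probes, and these served as an alternative. From the processed signals, control and outlier spots were dropped, spots of the same probe were averaged in log2, and 55681 probes were quantile normalized. A probe was tested when at least 0.5 of its spots were well above background on all 8 arrays. FD and wildtype were compared with limma 3.58.1 in R 4.3.3, without covariates, with the Benjamini and Hochberg adjustment across every tested probe. The number of arrays limits the precision, and the spread is that between pools of 2 mice. The model was tested on simulated data.

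The members, the other lists and the rules were chosen with earlier results of these data known. Values per sample are given for members that were called or at the study's criteria, the 8 others with the largest difference, and members that define a role (Ulk1, Becn1, Atg9a, Atg5, Atg4b, Map1lc3b, Sqstm1, Stx17 and Tbk1). In each other list, without a called gene, the 2 with the smallest p are named. Tfeb was named outside this rule, with its value known, as were the second probe of Atg10 and the other probes of Bnip3 and Bnip3l. All 40 names matched RefSeq symbols through the transcript of at least 1 probe. The dimmer Sqstm1 probe, the dimmest Gabarap probe and the Wipi1 probe at 0.13 had no RefSeq transcript and kept the name given by the array. The alternatives were scaling to the 75th percentile, the authors' table, normexp on the mean and background signals, other filters on dim probes, the methods' t-test, array weights, a replicate block, the slide row as a block, outlier spots kept, the mean of a gene's probes, and leaving out each sample.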

Additional observations from a re-analysis of the deposited data

Results flagged for a closer look

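In 7 of the 76 sets of 4 samples (38 members in 2 groups), the lowest or highest sample lay far from the other 3 of its group, by a gap that chance exceeds in about 1 of 20 such sets. In 5 of them it was wildtype sample 1. That sample was the lowest in Becn1 (log2 signal 10.78, next value 11.03), Bnip3 (15.04, next 15.34), Nbr1 (9.22, next 9.55) and Tbk1 (10.63, next 10.86), and the highest in Wipi2 (11.37, next 11.20). Wipi1 was lowest in wildtype sample 2 (10.02, next 10.20). Atg16l1 was highest in FD sample 3 (10.52, next 10.37).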

How the results depend on the processing

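Called members changed with the setting, with 4 of 38 called in at least 1 of 19 alternatives. The share of all tested genes called in at least 1 alternative was not counted. In single settings it was 3.12% in the reported analysis, 3.27% with 75th percentile scaling and 3.89% with normexp. It was 7.35% with array weights and 0.92% with the methods' t-test. Higher calls, 0 in the reported analysis, were 2 with 75th percentile scaling (Gabarap and Optn) and with array weights (the same names), and 1 each with normexp (Optn), the methods' t-test (Gabarap), outlier spots kept (Optn) and the mean of a gene's probes (Optn), and 0 to 1 on leaving out single samples (Optn without wildtype sample 1 or 2). Lower calls were 1 with normexp (Atg9a) and with array weights (Atg13), and 0 to 1 without single samples (Atg9a without wildtype sample 4). At the study's criteria, the higher count was 2 with 75th percentile scaling, normexp and the row as a block, and 0 (without wildtype sample 1) to 2 (without wildtype sample 4) on leaving out single samples (Optn lost, and Atg3 added). The lower count was 0 (Atg9a lost) with the methods' t-test, array weights and the replicate block. The members' median was 0.0148 with 75th percentile scaling, 0.0053 with normexp, -0.0062 without the filter, -0.0228 with the row as a block, 0.0209 with the mean of probes, and -0.0060 (without FD sample 1) to 0.0098 (without wildtype sample 2). Of all tested probes 904 were called, against 556 without the filter, 266 with the methods' t-test, 2102 with array weights, 284 with the replicate block, and 414 (without FD sample 2) to 1038 (without wildtype sample 1), with 541 or fewer without each FD sample and without wildtype samples 3 and 4. Replicate numbers did not pair the samples (correlations of -0.25 to 0.063 between samples of the same number), and with the replicate block the number of called members was 0. Sqstm1 turned to 0.11 with the mean of probes. Stx17 turned to 0.034 with array weights and 0.095 with the mean of probes, with -0.10 to 0.060 without single samples. Atg4b turned to 0.028 with the row as a block, with -0.025 to 0.022 without single samples, and Atg5, with -0.0036 to 0.040 without single samples, turned without wildtype sample 1. In all, 20 of 38 members kept their direction in every alternative and 18 did not. The causes were not tested.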
